A study of Mus musculus with 24 samples.

Results

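The response of the wild type mouse choroid to laser treatment was examined in 13 of the 24 RNA libraries of the series, all those whose labels give the genotype as wild type. Of these, 9 came from laser-treated mice (libraries 1, 2, 3, 11, 12, 13, 16, 17 and 19) and 4 from mice without laser (libraries 21, 22, 26 and 27). The wild type mice were littermates of Ceacam1-/- mice, which lack exons 1 and 2 of Ceacam1, on a C57BL/6J background, and mice of both sexes aged 6 to 8 weeks were used unless stated otherwise. Choroidal neovascularization was induced under anaesthesia with 6 spots per eye of a frequency-doubled Nd:YAG laser at 150 mW, with a spot of 200 µm and a duration of 100 ms. The labels give the tissue as choroid, a word that the study's cell sorting methods use for retinal pigment epithelium, choroid and sclera together. The time between laser and dissection, the sex of the mice and the side of the eye are not in the labels. Nor do the labels say whether eyes or mice were pooled. Each library is therefore treated as a separate sample, and the p-values measure the spread between these samples. The laser libraries carry the numbers 1 to 19 and the others the numbers 21 to 27, so that anything that goes with this numbering cannot be told apart from laser.

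The choroid is the vascular layer between the retinal pigment epithelium (RPE) and the sclera, and it feeds the photoreceptors through the fenestrated choriocapillaris. A laser burn that breaks Bruch's membrane, the sheet between RPE and choriocapillaris, lets new vessels grow from the choroid towards the retina and is the usual mouse model of the neovascular form of age-related macular degeneration. The lesion is known to draw in monocytes and macrophages, to pass through a clotting and wound healing phase with proteolysis of the matrix, and to end in a fibrous scar.

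The values are normalized counts, that is reads estimated for each gene and divided by factors for the size of the library and the average length of the transcripts. They summed to between 23717571 and 28563124 in the laser libraries (median 26057571) and to between 23979741 and 27093809 in the libraries without laser. Markers of the labelled tissue, taken as choroid with RPE, were present in every library. The amount of sclera was not examined. The 17 endothelial genes summed to 36491 to 79795 (median 47364) normalized counts with laser and to 27648, 38886, 58248 and 30240.2 in libraries 21, 22, 26 and 27 without laser, and the 17 RPE genes to 321527 to 673180.1 (median 526538) and to 442802, 243359, 847443 and 502847. The dissections also held RNA of neighbouring tissues in amounts that differed between libraries, and some libraries stood apart. The 19 rod photoreceptor genes summed to 20164 to 300825 (median 77329) normalized counts with laser and to 747319, 138583, 27436 and 350129.8 without. The 20 sarcomere genes of skeletal muscle, which surrounds the eye, summed to 142467 to 635124 (median 505596) with laser and to 518039.6, 1021774, 559427 and 989941 without, so that libraries 22 and 27 held more than any laser library. The 15 surface epithelium genes, of cornea and conjunctiva, summed to 23226, 236840.2, 495629 and 109339 in libraries 12, 19, 22 and 27 and to at most 5910.1 in the other 9, and the corneal keratin Krt12 alone had 175232 in library 22. Lars2, which no other gene exceeded in any of the libraries, took over 5% of the summed values in the laser libraries 1, 2 and 17 and at most 3.10% in the libraries without laser. The summed Y-linked genes were at least 4777 in libraries 1, 12, 16, 17, 19 and 21 and at most 39.2 in the other 7. In these bulk libraries, fewer cells of a type and less RNA per cell cannot be told apart.

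Laser treatment was accompanied by higher expression of a broad set of myeloid, protease, matrix and cell division genes. A smaller set, which included genes of muscle and mitochondria, had lower expression. For each gene, log2 of the normalized count plus 1 was compared between 9 and 4 libraries with limma, a linear model that shares information on the spread between genes, and p was adjusted over all genes by the Benjamini-Hochberg method. Of the 19529 genes with a mean of at least 10 normalized counts, 2274 (11.6%) had an adjusted p under 0.05, of which 1588 (8.13% of those tested) rose and 686 (3.51%) fell. The genes that rose had a median log2 fold change of 1.24, and 375 of them rose at least 4-fold, that is by 2 or more on the log2 scale. The genes that fell had a median of -0.95, and 53 fell at least 4-fold. Of the genes that rose, 1488 were protein-coding and 70 were long non-coding RNAs, and of those that fell 564 and 89. All 9 laser values lay above all 4 values without laser in 903 genes (4.62% of those tested) and below them in 345 (1.77%). The median log2 fold change over all genes tested was -0.09. Because 1 was added before the log2 transformation, the fold change of genes with low values is understated.

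**Figure D1:**
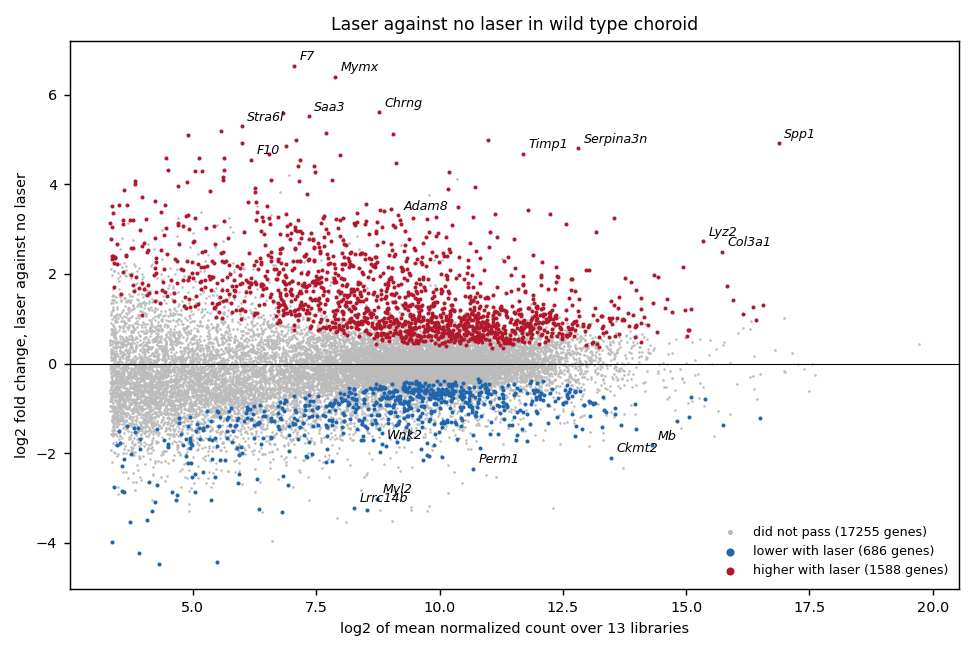
Log2 fold change of laser against no laser (vertical axis) by log2 of the mean normalized count over 13 libraries (horizontal axis) for the 19529 genes tested. Red points are the 1588 genes that rose, blue points the 686 that fell and grey points those that did not pass an adjusted p of 0.05; the genes that rose reach further from 0 than most that fell.

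The library sets that stood apart were left out in fits chosen after seeing the data. Without libraries 12, 19, 22 and 27, those rich in surface epithelium, 784 genes rose and 41 fell. Of the genes in the main comparison, 681 of 1586 that could be tested again still rose and 30 of 675 still fell. Among the 4 laser and 3 other libraries with low Y-linked genes, 579 rose and 169 fell. Without the Lars2-rich libraries 1, 2 and 17 the numbers were 1574 and 690. In each of these 3 fits, every gene with a call in the main comparison that was tested again kept its sign. These fits hold fewer libraries than the main comparison. They reuse libraries on which the calls were made, so that nothing is read from the kept signs. Leaving out a single library moved a count by over 1.5 times for 3 of the 4 libraries without laser, in the case of library 22 for the falling genes alone. Without library 27 the numbers that rose and fell were 1055 and 196, without library 21 they were 1031 and 362, and without library 22, 1487 and 382. Of the 164 genes with a call that are named here, 114 passed the test whichever single library was left out.

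The 4 genes that mark the response belong to the acute phase, proteolysis and clotting. Serpina3n (ENSMUSG00000021091, chromosome 12 from 104372810 to 104380597 on GRCm39) encodes a secreted inhibitor of serine proteases that is induced in injured tissue. Its normalized count was 7858 to 15137 (median 9815) with laser and 404, 406, 598 and 163 without (log2 fold change 4.80, standard error 0.28, adjusted p = 1.00e-06), and its lowest laser library was more than 10 times its highest library without laser. Timp1 (ENSMUSG00000001131, chromosome X from 20736316 to 20740976), a tissue inhibitor of matrix metalloproteinases, had 1655 to 8177 (median 4847) and 97.1, 162, 279 and 155 (log2 fold change 4.69, standard error 0.38, adjusted p = 5.00e-06). Adam8 (ENSMUSG00000025473, chromosome 7 from 139558845 to 139572475), a membrane-bound metalloproteinase of leukocytes, had 469 to 1108 (median 798) and 74.9, 44, 96.7 and 106 (log2 fold change 3.32, standard error 0.25, adjusted p = 3.00e-06). F10 (ENSMUSG00000031444, chromosome 8 from 13087293 to 13106676), which encodes coagulation factor X, had 47.9 to 184 (median 83.7) and 1.88, 2.2, 4.78 and 4.37 (log2 fold change 4.55, standard error 0.38, adjusted p = 5.00e-06). For each of these 4 genes all laser libraries were above all others. As they were chosen with earlier results of these data known, this is a description. The values of the 4 genes had no common order among the laser libraries, since library 19 was lowest for Timp1, library 17 for Adam8 and library 2 for Serpina3n and F10, while library 1 was highest for all but Adam8.

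**Figure D2:**
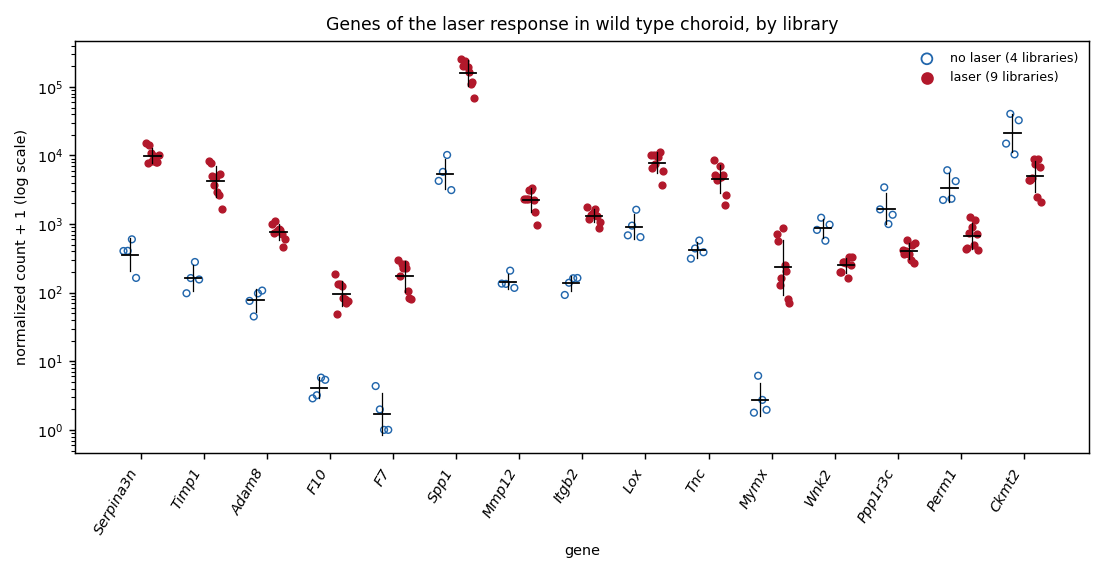
Normalized count plus 1 on a log axis (vertical) of 15 genes (horizontal) in each library. Open blue circles are the 4 libraries without laser, filled red circles the 9 laser libraries, and black lines the mean and SD of the log2 values; the groups do not overlap for any of these genes, of which the 4 on the right fell.

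Among the 13 acute phase and serpin genes tested, 6 rose and none fell, beside 8.13% rising and 3.51% falling over all genes tested, with a median log2 fold change of 0.88 beside -0.09 over all genes. Saa3, a serum amyloid A protein made by macrophages and epithelia, had 73.6 to 639 (median 132) normalized counts with laser and at most 8.35 without. Lcn2, a siderophore-binding protein of the innate defence, had 137 to 670.0 (median 191) and 33.9, 29.8, 13 and 25.2. Their log2 fold changes were 5.53 (adjusted p = 4.80e-05) and 3.29 (adjusted p = 0.000116). In the coagulation list 6 of 15 genes rose (median 0.62). F7, factor VII of the extrinsic pathway, had the largest log2 fold change of all genes named here, 6.65, with 79.7 to 301 (median 226) normalized counts after laser and 3.35, 0.986, 0 and 0 without. Tfpi2, a Kunitz-type protease inhibitor, rose by 2.60 (adjusted p = 6.70e-05). Tissue factor (F3), the cell surface partner of factor VII, had 1855 to 3938 (median 3211) with laser and 1988, 4436, 2760.0 and 2490.2 without (log2 fold change 0.14, standard error 0.22, adjusted p = 0.702), so that its groups overlapped. In the plasminogen system 7 of 10 genes rose (median 1.02). These included the urokinase Plau (2.37) and its receptor Plaur (2.95), as well as Serpinf1 (1.02), which encodes the anti-angiogenic factor PEDF. Without library 21 4 of the 10 passed the test, and the adjusted p of Serpinf1 was then 0.0516. Plaur had 355 to 1267 (median 838) normalized counts with laser and 75.6, 130.4, 121 and 95.6 without.

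In the interleukin-6 and STAT3 list 7 of 19 genes rose, with a median of 0.62. Oncostatin M (Osm), a macrophage cytokine, had 21.9 to 133 (median 65.6) normalized counts with laser and 0, 0.999, 11.1 and 6.03 without (log2 fold change 4.09, standard error 0.62, adjusted p = 0.000671). Il6 itself had 9.95 to 78.5 (median 35.6) and 2.3, 0, 6.48 and 10.2 (log2 fold change 3.08, standard error 0.62, adjusted p = 0.00481), with a small overlap of the groups. Socs3, the feedback inhibitor of STAT3 signalling, rose by 1.19 (adjusted p = 0.00165). In the interleukin-1 list 9 of 21 genes rose (median 0.79). Il1rn, which encodes the natural antagonist of the interleukin-1 receptor, rose by 3.89 (adjusted p = 0.00365), more than the receptor Il1r1 with 1.20 (adjusted p = 0.00121). Without laser, Il1rn was high in the epithelium-rich libraries 22 and 27, with 355 and 539 normalized counts, and low in libraries 21 and 26, with 24 and 17.8. Without libraries 12, 19, 22 and 27 its log2 fold change was 6.08 (adjusted p = 6.51e-05). The tumour necrosis factor receptor Tnfrsf1b rose by 1.59 (adjusted p = 0.000342).

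Every one of the 18 pan-myeloid genes rose, with a median of 2.31, and for 17 of the 18 all laser values were above all others, beside 4.62% of all genes tested. The integrin chain Itgb2, shared by the leukocyte integrins, had 868 to 1785 (median 1356) normalized counts with laser and 91.6, 139, 161 and 163 without (log2 fold change 3.27, standard error 0.20, adjusted p = 1.00e-06). The NADPH oxidase subunit Ncf1 rose by 2.67 (adjusted p = 8.00e-06) and the lysosomal macrophage marker Cd68 by 2.77 (adjusted p = 9.00e-06). Lyz2, the lysozyme of myeloid cells and the most abundant gene of this list per kilobase of exon, had 28721 to 92493 (median 53995) and 5753, 7334, 12048 and 8021. Summed over the list, the values were 59231 to 145655 (median 87074) with laser and 11819, 15528, 25142 and 16518 without. Mpeg1, which encodes the macrophage pore protein perforin-2, and the leukocyte tetraspanin Cd53 were among the 10 rising protein-coding genes of lowest p, with log2 fold changes of 2.93 (adjusted p = 3.00e-06) and 3.34 (adjusted p = 3.00e-06). Without libraries 12, 19, 22 and 27, 17 of the 18 genes still rose, with a median of 2.38.

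Genes of recruited monocytes and of activated macrophages had higher medians than genes of resident macrophages. Among genes of recruited monocytes 16 of 19 genes rose (median 2.03). Chil3, a chitinase-like protein of inflammatory monocytes, had 126 to 375 (median 169.8) normalized counts with laser and 1.75, 11.1, 10.2 and 2.07 without. The scavenger receptor Msr1 rose by 3.12 (adjusted p = 1.30e-05) and Ccr2, the receptor by which monocytes follow Ccl2, by 2.91 (adjusted p = 1.40e-05). In the list of lipid-associated macrophages 12 of 16 genes rose (median 1.46). Spp1, which encodes osteopontin, had 69316 to 250533 (median 192190.4) normalized counts with laser and 4259, 5760.4, 10163 and 3125 without (log2 fold change 4.92, standard error 0.36, adjusted p = 3.00e-06). Apoc2, the cofactor of lipoprotein lipase, had 133 to 495 (median 308) and 3.22, 5.79, 18.1 and 5.67, and the lipid receptor Trem2 rose by 2.84 (adjusted p = 3.80e-05). Of the genes of resident macrophages and microglia, 8 of 16 rose, with a median of 0.75. The fractalkine receptor Cx3cr1 rose by 1.96 (adjusted p = 0.000116) and the mannose receptor Mrc1 by 1.14 (adjusted p = 0.00375). Without library 21, 5 of these 16 rose. The difference between these lists was not tested.

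Chemokines and their receptors were prominent among the rising genes. In the CC list 10 of 16 genes rose (median 1.86). The monocyte attractants Ccl2 and Ccl7, neighbours on chromosome 11, had 328 to 1702 (median 411) and 272 to 1237 (median 383) normalized counts with laser, and 41.2, 64.6, 81.4 and 83.3 and 25.7, 37.7, 84.2 and 74.6 without. Ccl9 and Ccl6 rose by 2.00 (adjusted p = 0.000135) and 2.08 (adjusted p = 0.000515). In the CXC list 9 of 14 genes rose (median 2.09). Cxcl3, a neutrophil attractant, was listed at 0 in all 4 libraries without laser and had 3.78 to 37.9 (median 14.3) with laser. The stromal factor Cxcl12 was far more abundant and rose by 1.09 (adjusted p = 0.000528), with 9349 to 12219 (median 10083) against 3663, 6232, 6350.1 and 3949.7, and Cxcl16 rose by 1.11 (adjusted p = 0.000258). Of 12 chemokine receptors tested 6 rose. Ccr1, a receptor of Ccl6, Ccl7 and Ccl9, had 389 to 728 (median 494) with laser and 23.2, 44.2, 61.2 and 47.3 without (log2 fold change 3.55, standard error 0.23, adjusted p = 1.00e-06), and Cxcr4, the receptor of Cxcl12, rose by 1.24 (adjusted p = 0.00845).

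Genes of opsonin recognition, antigen presentation and lysosomal digestion also rose. In the complement list 15 of 23 genes rose (median 1.35). The receptors of the anaphylatoxins, C3ar1 and C5ar1, rose by 3.09 (adjusted p = 5.00e-06) and 2.50 (adjusted p = 6.00e-06), and the complement receptor integrin Itgax by 3.24 (adjusted p = 6.00e-05). C3ar1 had 1163 to 2127 (median 1783) normalized counts with laser and 102, 178, 319 and 225 without. All 6 genes of the Fc gamma receptor list rose without overlap of the groups (median 2.20), among them Fcgr1 (3.16), Fcgr4 (3.01), Fcgr3 (1.97) and the signalling chain Fcer1g (2.42). In the MHC class II list 8 of 10 genes rose (median 1.48). Ctss, the protease that cleaves the invariant chain, had 8067 to 17563 (median 12408) with laser and 1543, 1607, 2076 and 1246 without (log2 fold change 2.94, standard error 0.21, adjusted p = 3.00e-06), and the invariant chain Cd74, H2-Ab1 and the costimulatory ligand Cd86 rose by 1.49, 1.67 and 1.79. Among MHC class I and interferon-stimulated genes 4 of 10 and 4 of 19 rose, with medians of 0.68 and 0.67, and no interferon-stimulated gene was without overlap of the groups. H2-D1 rose by 0.81 (adjusted p = 0.0183), B2m by 0.75, the immunoproteasome subunit Psmb9 by 0.88 and the peptide transporter Tap2 by 0.61. Ifit3 rose by 0.61 (adjusted p = 0.0242), Ifitm3 by 1.05, Bst2 by 0.91 and Ifitm2 by 0.85. Without library 21 no gene of either list passed the test, and without library 27 no interferon-stimulated gene, whereas 7 of the latter rose without library 26. Of the MHC class I genes 1 rose without library 12 and 2 without library 1, 2 or 11. Among lysosomal proteases and hydrolases 14 of 18 genes rose (median 1.17), with Gusb at 1.47 and Lgmn at 1.14. Ctss is in both this list and that of MHC class II. Of single calls in these lists, leaving out 1 library ended that of Tap2 for any of libraries 1, 2, 3, 11, 12, 13, 17, 19, 21 and 27, of Ifitm2 for 1, 2, 3, 12, 17, 21, 22 and 27, of Psmb9 for 1, 2, 11, 12, 21 and 26, of B2m for 12, 21 and 22, of Ifitm3 and Bst2 for 21, 22 and 27, of Ifit3 for 21 and 27 and of H2-D1 for 21.

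Markers of other leukocytes were low. In the neutrophil list 7 of 12 genes had a mean of at least 10, and 3 of them rose, namely Mmp8 (4.55), Csf3r (1.85) and S100a8 (2.37). The other 4 tested did not pass, with a lowest log2 fold change of -0.06. The members below this mean, Ly6g, Mpo, Elane, Ngp and Retnlg, had means of 0.26 to 4.66 with laser and 0 to 2.74 without. Mmp8, the collagenase of neutrophil granules, had 75.7 to 355 (median 198) normalized counts with laser and 8.14, 8.2, 1.84 and 15.6 without, above all 4 in every laser library. None of the 7 mast cell genes tested passed the test, and all 7 had negative log2 fold changes (median -0.57). Of 9 genes of T, NK and B cells tested, Cd79b of B cells rose, by 1.34 (adjusted p = 0.0274), with overlap of the groups. It did not pass without library 21, 22 or 27. Over all genes tested 8.13% rose, and nothing is read from the share of the lymphocyte list. The lymphocyte list summed to 211 to 378 (median 334) normalized counts with laser and to 142, 218, 466 and 312 without.

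**Figure D3:**
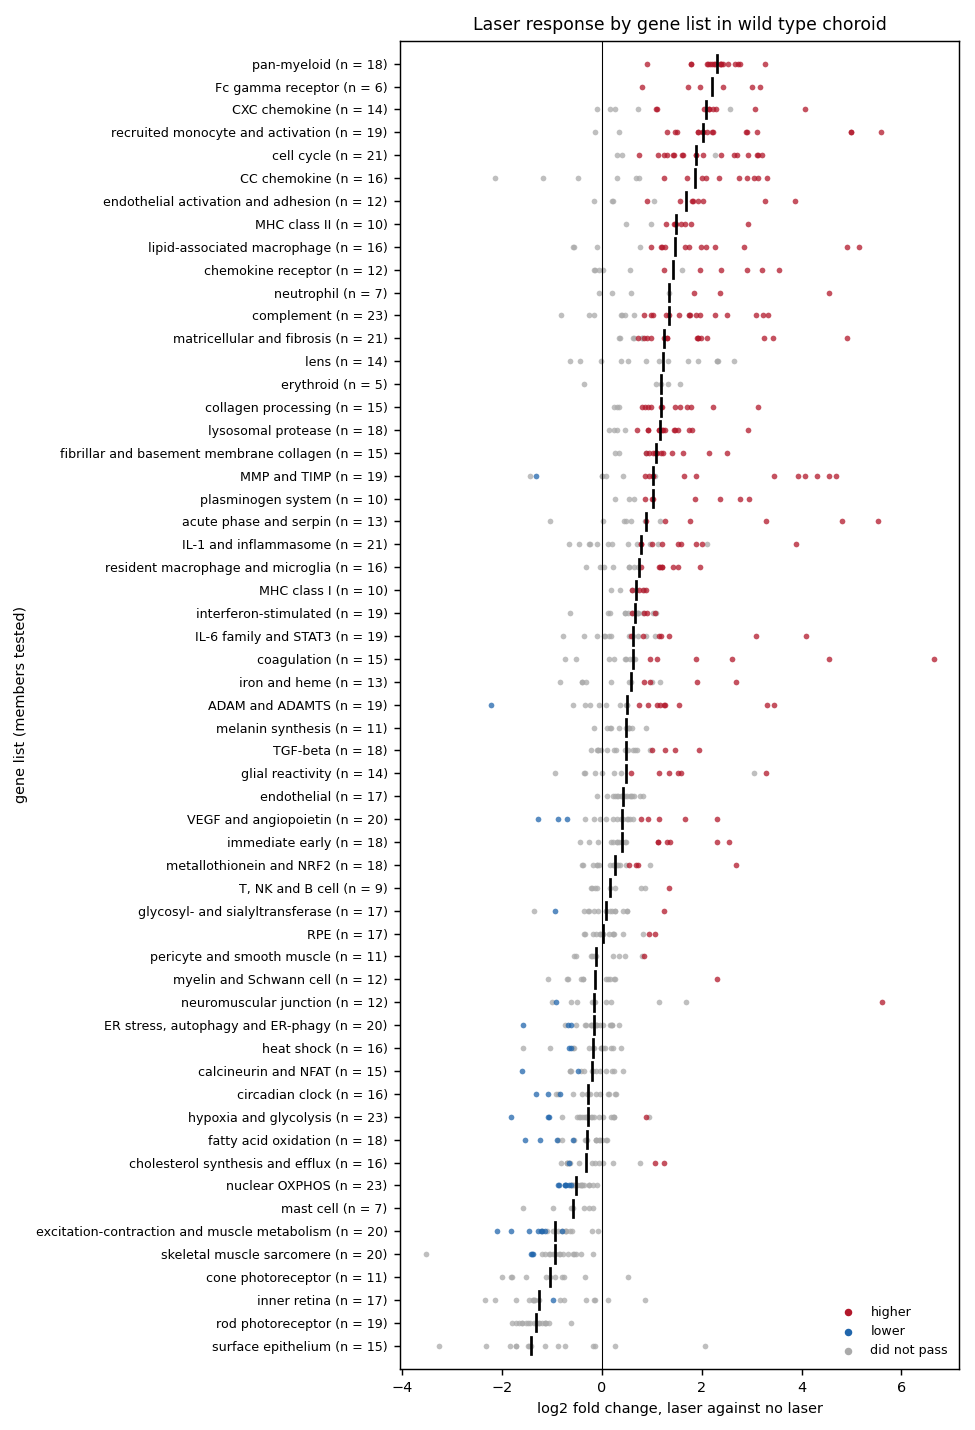
Log2 fold change of laser against no laser (horizontal axis) of the members of 57 gene lists (vertical axis, with the number of members tested), sorted by their median. Each point is a gene, red where it rose, blue where it fell and grey where it did not pass; black bars are medians, from 2.31 for pan-myeloid genes to -1.42 for surface epithelium genes.

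The promoters of the rising and falling genes were searched for the letters of 5 factor motifs, since these factors act in myeloid cells, inflammation and stress. Windows of 250 bases before to 50 after the start of the canonical transcript were read from GRCm39 for 15630 protein-coding genes. The motifs, on both strands, were TGACTCA for AP-1, TTCNNNGAA for STAT, GAGGAAGT for PU.1, encoded by the pan-myeloid gene Spi1 (log2 fold change 2.25), GGANTTTCC for NF-kB and GAANNTTC for heat shock factor. The letters TTC and GAA occur in more than 1 of these motifs, so that matches of STAT, NF-kB and heat shock motifs can overlap. The PU.1 letters were in 6.72% of the 1488 windows of rising genes, in 2.13% of the 564 windows of falling genes and in 2.82% of all windows. For NF-kB the shares were 3.09%, 0.532% and 1.36%, for AP-1 5.78%, 4.96% and 3.97%, for STAT 8.87%, 7.80% and 7.65%, and for the heat shock motif 7.12%, 6.56% and 6.13%. None of the 5 motifs was in the windows of Serpina3n, Timp1, Adam8 or F10. A match shows that the letters are there and not that the factor binds. To show where the letters lie, the 250 bases before the start are given, 5′ to 3′ on the strand of the gene, for the 3 named rising genes of lowest p with a PU.1 match and the 3 with an NF-kB match, with the match in capitals.
Mmp8, chr9:7558207-7558456, plus strand: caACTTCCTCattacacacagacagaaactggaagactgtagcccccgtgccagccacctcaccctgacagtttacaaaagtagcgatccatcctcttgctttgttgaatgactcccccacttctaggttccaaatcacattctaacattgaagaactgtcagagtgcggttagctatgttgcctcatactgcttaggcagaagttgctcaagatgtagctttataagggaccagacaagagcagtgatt
Fcer1g, chr1:171062220-171062469, minus strand: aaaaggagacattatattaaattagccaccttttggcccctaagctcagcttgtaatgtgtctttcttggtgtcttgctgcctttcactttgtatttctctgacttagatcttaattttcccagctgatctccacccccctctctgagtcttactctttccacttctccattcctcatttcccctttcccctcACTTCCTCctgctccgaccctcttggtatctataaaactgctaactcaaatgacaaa
S100a8, chr3:90576035-90576284, plus strand: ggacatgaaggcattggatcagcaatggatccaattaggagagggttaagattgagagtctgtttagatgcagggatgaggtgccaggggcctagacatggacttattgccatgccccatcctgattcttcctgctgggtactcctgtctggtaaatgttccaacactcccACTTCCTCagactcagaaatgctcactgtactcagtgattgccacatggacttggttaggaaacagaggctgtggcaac
Tfpi2, chr6:3968418-3968667, minus strand: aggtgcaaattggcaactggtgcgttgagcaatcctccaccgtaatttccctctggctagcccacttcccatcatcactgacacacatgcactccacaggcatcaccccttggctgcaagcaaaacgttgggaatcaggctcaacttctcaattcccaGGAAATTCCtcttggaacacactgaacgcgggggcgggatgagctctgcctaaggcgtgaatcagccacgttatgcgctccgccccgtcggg
Cxcl3, chr5:90933712-90933961, plus strand: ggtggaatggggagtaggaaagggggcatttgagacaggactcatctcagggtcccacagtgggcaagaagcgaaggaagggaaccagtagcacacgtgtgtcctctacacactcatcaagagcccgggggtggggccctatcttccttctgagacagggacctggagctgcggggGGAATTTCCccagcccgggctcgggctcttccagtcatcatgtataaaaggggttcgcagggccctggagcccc
Plau, chr14:20886472-20886721, plus strand: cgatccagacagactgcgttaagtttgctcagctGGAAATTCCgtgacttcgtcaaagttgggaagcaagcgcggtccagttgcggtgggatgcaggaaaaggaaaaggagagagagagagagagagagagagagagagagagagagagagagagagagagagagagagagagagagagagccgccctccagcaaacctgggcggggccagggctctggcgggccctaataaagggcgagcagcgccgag
The PU.1 match ended 50 bases before the start in Fcer1g, 72 in S100a8 and 241 in Mmp8, and in all 3 it lay on the strand opposite to the gene. The NF-kB match ended 66 bases before the start in Cxcl3, 84 in Tfpi2 and 208 in Plau. The sequences come from the GRCm39 reference with transcript starts of GENCODE vM39.

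Proteases of the matrix rose along with the matrix they cut. In the list of matrix metalloproteinases and their inhibitors 12 of 19 genes rose (median 1.03) and Timp4 fell (-1.32), a call lost without any 1 of libraries 2, 3, 11, 12, 13, 16, 19, 21, 22 and 26. Mmp12, the macrophage elastase, had 956 to 3377 (median 2314) normalized counts with laser and 134, 133, 208 and 116 without (log2 fold change 3.93, standard error 0.29, adjusted p = 3.00e-06). Timp3, the inhibitor bound to Bruch's membrane and the most abundant of the list per kilobase of exon, had 25732 to 102211 (median 57505) and 52067, 39830.0, 87901 and 52885 (log2 fold change 0.01, adjusted p = 0.988), in contrast to Timp1. In the ADAM and ADAMTS list 9 of 19 genes rose and Adamts18 fell (-2.22, but not past the threshold without library 21), with a median of 0.51. Among those that rose were Adam12 (3.44) and the procollagen peptidase Adamts2 (1.26). In the list of collagens 12 of 15 genes rose (median 1.07). The fibrillar collagen Col3a1 had 25124 to 118190.3 (median 65401) with laser and 7499.5, 14656, 13848 and 12463 without (log2 fold change 2.50, standard error 0.35, adjusted p = 0.00037), Col5a2 rose by 2.15 (adjusted p = 0.000207) and the basement membrane chain Col4a1 by 1.18 (adjusted p = 0.00127). Col1a1, with the highest value of the list per kilobase of exon, rose by 1.11 (adjusted p = 0.0283) with overlap of the groups. Of the enzymes and chaperones of collagen processing, 12 of 15 rose (median 1.18). The crosslinking enzyme Lox had 3658 to 11065 (median 9586) and 684, 948, 1616 and 645 (log2 fold change 3.12, standard error 0.30, adjusted p = 1.50e-05), the prolyl hydroxylase subunit P4ha3 rose by 2.23 and the collagen chaperone Fkbp10 by 1.70. The call of Col1a1 was lost without library 3, 21, 22 or 27. The part of sclera in the dissections in these collagen values was not tested.

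Matricellular proteins, which guide cells through the provisional matrix of a wound, rose in 15 of 21 cases (median 1.24). Spp1 is in this list as well as in that of lipid-associated macrophages. Tenascin C (Tnc) had 1896 to 8534 (median 4808) normalized counts with laser and 312, 440.0, 575 and 387 without (log2 fold change 3.44, standard error 0.32, adjusted p = 1.30e-05), and fibronectin (Fn1) rose by 2.10 (adjusted p = 0.000295). Thrombospondin 1 (Thbs1) rose by 1.93 (adjusted p = 0.00177), with library 26 without laser above the lowest laser library. In the TGF-beta list 4 of 18 genes rose (median 0.49), namely the ligand Tgfb1 (1.46), the latency protein Ltbp2 (1.95), Lrg1 (1.26), a glycoprotein that acts on endothelial TGF-beta signalling, and the receptor Tgfbr2 (1.00). Tgfb3 had a log2 fold change of 0.66 (adjusted p = 0.0573). Without libraries 12, 19, 22 and 27, 5 of 15 collagens, 6 of 15 collagen processing genes and 7 of 21 matricellular genes rose. Leaving out library 21 alone, 7 of the 15 collagens rose, without Col1a1, and leaving out library 27 alone, 2 of the TGF-beta genes. The call of Tgfbr2 was lost without library 21 or 27 and that of Lrg1 without library 27.

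Genes of DNA replication and mitosis rose in 18 of 21 cases, with a median of 1.89. The mitotic kinase Cdk1 had 746 to 2014 (median 852) normalized counts with laser and 181, 332, 367 and 290.5 without (log2 fold change 1.89, standard error 0.28, adjusted p = 0.000606). Rrm2, a subunit of ribonucleotide reductase, rose by 2.93 (adjusted p = 0.00143) and the replication helicase subunit Mcm5 by 1.43 (adjusted p = 0.00166). For Rrm2 the library without laser that was richest in surface epithelium, library 22, had 561 and the other 3 between 39.9 and 189. Without libraries 12, 19, 22 and 27 17 of the 21 genes rose, with a median of 2.50, and among the libraries with low Y-linked genes 5. Of 18 immediate early genes 6 rose (median 0.40), among them the zinc finger factors Egr2 (2.30) and Egr3 (1.13) and the stress factor Atf3 (1.30). Without library 21 or 27, 3 of these 18 rose. Egr2 is also in the list of myelin and Schwann cell genes, of which it was the only one of 12 to pass the test. Over all genes tested 8.13% rose, and nothing is read from the share of the myelin list. The call of Atf3 was lost without library 27.

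None of the 17 endothelial genes passed the test, with log2 fold changes between -0.09 and 0.83 and a median of 0.43. In the VEGF and angiopoietin list 5 of 20 genes rose and 3 fell. Vegfa, the main driver of choroidal vessel growth, had 2796 to 6621 (median 4605) normalized counts with laser and 8009, 6041, 10672 and 8926 without (log2 fold change -0.88, standard error 0.23, adjusted p = 0.0227). Vegfb (-0.70) and Vegfd (-1.28) also fell, and the Notch ligand Dll4 (0.92) and the VEGF co-receptor Nrp2 (0.78) rose. Aplnr, the apelin receptor of sprouting endothelium, had 861 to 1872 (median 1285) and 208, 648, 307 and 641 (log2 fold change 1.67, standard error 0.28, adjusted p = 0.00129). Its ligand Apln rose by 1.15 (adjusted p = 0.00861), and Angptl4, which affects vascular permeability, by 2.31 (adjusted p = 0.0016). Without libraries 12, 19, 22 and 27 2 of the 20 genes rose and none fell. Leaving out library 21, 26 or 27 alone, the log2 fold change of Vegfa was -0.89 (adjusted p = 0.0566), -0.75 (adjusted p = 0.0602) and -0.84 (adjusted p = 0.0804). The call of Vegfd was lost without any 1 of libraries 1, 2, 3, 13, 16, 19, 22, 26 and 27, that of Nrp2 without 3, 13, 16, 21, 22 or 27, that of Dll4 without 21, 22 or 27 and that of Vegfb without 27. The numbers of the list that rose and fell were 3 and 2 without library 21, 3 and 2 without library 22, 8 and 1 without library 26 and 3 and 0 without library 27. In the list of endothelial activation and leukocyte adhesion 8 of 12 genes rose (median 1.68). This list also holds genes of leukocytes. Its most abundant member per kilobase of exon was the leukocyte integrin chain Itgb2, which is also in the pan-myeloid list. Madcam1, an adhesion molecule of venules known from the gut, had 42.7 to 74.7 (median 56.7) and 1.27, 1.21, 6.89 and 4.97 (log2 fold change 3.86, standard error 0.39, adjusted p = 2.50e-05), and the selectin ligand Selplg of leukocytes rose by 2.03 (adjusted p = 1.30e-05). Of 11 pericyte and smooth muscle genes the smooth muscle actin Acta2 rose, by 0.84 (adjusted p = 0.0371), beside 8.13% rising over all genes tested. This call was lost without any 1 of libraries 1, 2, 3, 12, 21, 22 and 27.

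In the RPE list Krt8 and Krt18, keratins of simple epithelia, rose by 1.06 (adjusted p = 0.0175) and 0.94 (adjusted p = 0.0424) with overlap of the groups. None of the other 15 genes passed the test. Over all genes tested 8.13% rose, and nothing is read from the share of the RPE list. Without library 21 or 22 neither keratin passed, with adjusted p of 0.0579 and 0.0589 for Krt8 and 0.108 and 0.146 for Krt18, whose call was also lost without library 1, 3, 11, 12, 13, 17 or 27. The median of the list was 0.03. Ttr, the carrier of retinol and thyroxine, had 80150.3 to 259891 (median 134473) normalized counts with laser and 113088, 64797, 223595 and 127750.2 without (log2 fold change 0.23, standard error 0.36, adjusted p = 0.714). None of the 11 melanin synthesis genes passed the test (median 0.49). Retinal genes had low medians. None of 19 rod genes (median -1.33) and none of 11 cone genes (median -1.03) passed the test. Of 17 inner retina genes 1 fell, beside 3.51% falling over all genes tested, namely the bipolar cell kinase Prkca (-0.98 (adjusted p = 0.0117)). Its adjusted p was 0.054 without library 21 and 0.061 without library 27. The rod transducin Gnat1 ranged from 2169 to 54623 (median 13459) with laser and had 142058, 24741, 3082 and 69921 without (log2 fold change -1.44, standard error 0.98, adjusted p = 0.36), so that the spread within each group was larger than the difference. Among genes of glial reactivity 6 of 14 genes rose (median 0.49), with the intermediate filament Nes at 1.53 and the hyaluronan receptor Cd44 at 1.58. None of the 14 lens genes (median 1.23) or 15 surface epithelium genes (median -1.42) passed the test. Ceacam1, the gene deleted in the other mice of the series, had 774 to 8367 (median 996) with laser and 958, 5027, 1242 and 4596 without (log2 fold change -0.82, standard error 0.59, adjusted p = 0.383). It was highest in libraries 19, 22 and 27, which are also among the 4 rich in surface epithelium genes, and without these 4 its log2 fold change was -0.20 (adjusted p = 0.639).

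**Figure D4:**
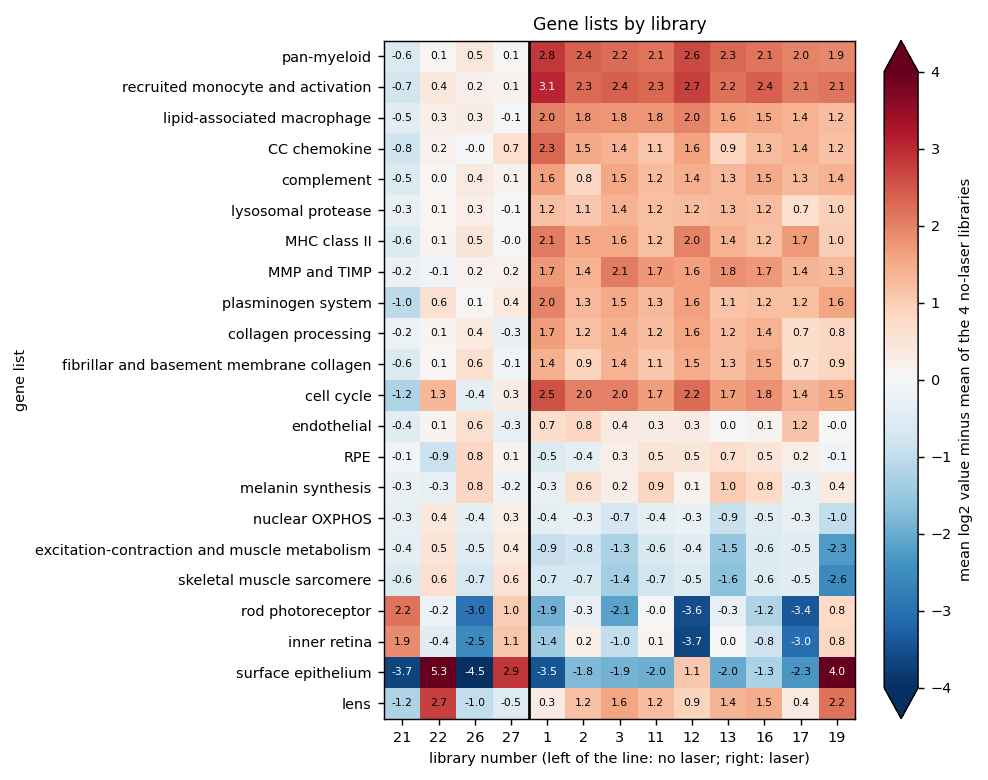
Mean log2 value of the members of 22 gene lists (rows) in each of the 13 libraries (columns, numbered), given as the difference from the mean of the 4 libraries without laser, printed in each cell and coloured from blue (lower) to red (higher). The pan-myeloid row is between 1.9 and 2.8 in every laser library, whereas the muscle, retina and surface epithelium rows vary as much within the groups as between them.

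Genes of skeletal muscle and of energy metabolism were among those that fell. Of 20 genes of excitation-contraction coupling and muscle metabolism 8 fell and none rose, beside 3.51% falling over all genes tested (median -0.93). The mitochondrial creatine kinase Ckmt2 had 2116 to 8763 (median 4656) normalized counts with laser and 14892, 40375, 10367 and 32587 without (log2 fold change -2.10, standard error 0.43, adjusted p = 0.00538), myoglobin (Mb) fell by 1.83 (adjusted p = 0.0157) and the muscle glycogen phosphorylase Pygm by 1.13 (adjusted p = 0.0109) on the log2 scale. Of 20 sarcomere genes 3 fell (median -0.94), namely Ldb3 (-1.39), titin (Ttn, -1.38) and the fast myosin Myh2 (-1.42). Of the 20 metabolism genes, 1 fell without library 27, 2 without library 22, 3 without library 3 or 13, 4 without library 1 and 5 without library 21, and no sarcomere gene fell without library 22 or 27. The call of Myh2 was also lost without library 2, 3, 12, 13, 17 or 19 and that of Ttn without library 2, 3 or 13, that of Mb was lost without library 22 or 27 and that of Pygm without library 27. The falling protein-coding genes of lowest p were Wnk2, Ppp1r3c and Perm1. Wnk2, a kinase that controls cation-chloride cotransport, had 165 to 333 (median 270.2) and 821, 1236, 570.2 and 979 (log2 fold change -1.80, standard error 0.23, adjusted p = 0.000159). Ppp1r3c, which directs a phosphatase to glycogen, had 266 to 591 (median 410.3) and 1635, 3427, 999 and 1366 (log2 fold change -2.04, standard error 0.28, adjusted p = 0.000306). Perm1, a regulator of mitochondrial biogenesis in muscle, had 414 to 1248 (median 706) and 2244, 6090.4, 2337 and 4221 (log2 fold change -2.35, standard error 0.34, adjusted p = 0.000514). Among the deepest falls of genes detected in every library were the LIM homeodomain factor Lmx1a (-3.27 (adjusted p = 0.0466)), Stmnd1 (-3.25), which encodes a stathmin domain protein, the slow myosin light chain Myl2 (-3.02), and Lrrc14b (-3.22) and Mettl21e (-2.72), both of striated muscle. Lmx1a had 4.42 to 465 (median 84.5) normalized counts with laser and 607, 1324, 303 and 1196 without, its groups overlapped, and its call was lost without any 1 of libraries 1, 3, 13, 17, 19, 21, 22 and 27, as was that of Myl2 without library 3, 13, 21, 22 or 27. In all of these genes the values without laser were highest in libraries 22 and 27, or in 1 of these and library 21. The other falling protein-coding genes among the 10 of lowest p included Retreg1, 6430571L13Rik (-1.27), Rgs4 (-1.10), a brake on G protein signalling, the mitochondrial fission protein Mtfp1 (-1.41), Lynx1 (-1.17), a modulator of nicotinic receptors, and Asb2 (-1.89), an adaptor of a ubiquitin ligase.

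Mitochondrial genes followed the muscle genes from library to library. Of 23 nuclear genes of oxidative phosphorylation (OXPHOS) 7 fell and none rose (median -0.52), with Atp5f1b, the catalytic subunit of ATP synthase, at 24428 to 35248 (median 27518) with laser and 38714, 63452, 37508 and 58154 without (log2 fold change -0.74, standard error 0.19, adjusted p = 0.0178). Of 18 genes of fatty acid oxidation 4 fell (median -0.30), namely Acadm (-0.90), Acadvl (-0.58), the muscle isoform of carnitine palmitoyltransferase, Cpt1b (-1.53), and the lipid-sensing receptor Ppara (-1.23). Without library 22 or 27 no OXPHOS gene passed the test, 4 fell without library 3 or 13, and 13 fell without library 26. Without library 27, 2 of the fatty acid oxidation genes fell. The call of Ppara was lost without any 1 of libraries 2, 3, 11, 12, 13, 17, 21, 22 and 27, and that of Cpt1b without library 27. Libraries 22 and 27 were highest and library 19 was lowest for both the sarcomere and the OXPHOS genes, and libraries 3 and 13 came next to the lowest. With the mean log2 value of the sarcomere genes as a covariate, none of the 23 OXPHOS genes, none of the 18 fatty acid oxidation genes and 1 of the 20 genes of muscle metabolism fell, with medians of -0.13, -0.14 and -0.14. Less muscle in the dissection and less RNA of these genes per muscle cell cannot be told apart here. Under the same covariate 263 of the 686 falling genes and 1211 of the 1588 rising genes still passed the test in their direction.

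**Figure D5:**
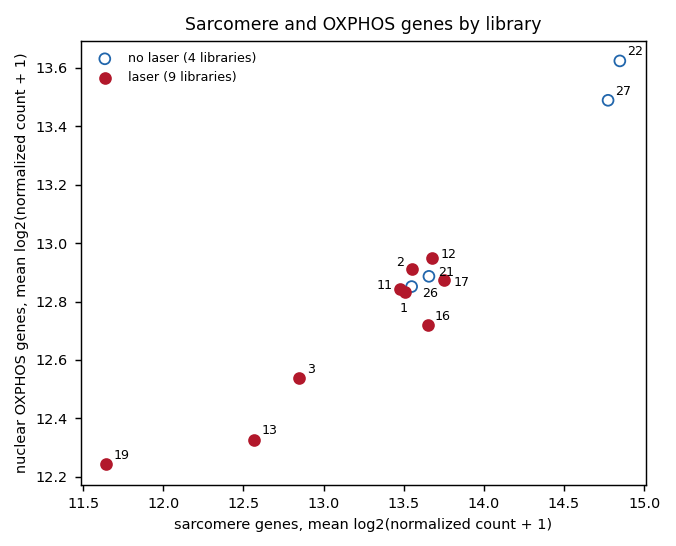
Mean log2(normalized count + 1) of the 23 nuclear OXPHOS genes (vertical axis) against that of the 20 sarcomere genes (horizontal axis) in the 13 libraries, numbered; open blue circles are without laser and filled red circles with laser. Libraries 22 and 27 lie at the upper right and library 19 at the lower left, and libraries 21 and 26 lie among the laser libraries.

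Mymx and Chrng, both of muscle, were among the 5 largest increases of genes detected in all 13 libraries. Mymx, which encodes myomixer, a small protein needed for the fusion of myoblasts, had 68.8 to 864 (median 203) normalized counts with laser and 0.781, 5.15, 1.74 and 0.959 without (log2 fold change 6.41, standard error 0.66, adjusted p = 2.90e-05). Chrng, the fetal gamma subunit of the muscle acetylcholine receptor that is replaced after innervation, had 38.4 to 1481 (median 377) and 14.1, 24.6, 0.763 and 4.98 (log2 fold change 5.62, standard error 0.91, adjusted p = 0.00107). The partner of Mymx in fusion, Mymk, rose by 3.23 (adjusted p = 0.00891), the myogenic factor Myog by 2.59 (adjusted p = 0.0159) and Runx1, a factor of myeloid cells that denervated muscle also expresses, by 1.92 (adjusted p = 0.000449). In the neuromuscular junction list Chrng rose and Dok7, an activator of the receptor kinase MuSK, fell (-0.91 (adjusted p = 0.0368)). The other 10 genes did not pass the test (median -0.15). Over all genes tested 8.13% rose and 3.51% fell, and nothing is read from the shares of this list. The call of Dok7 was lost without any 1 of libraries 2, 3, 11, 13, 16, 19, 21, 22 and 27. Without library 21 the adjusted p of Myog was 0.066. Mymx and Chrng were highest in library 12 and lowest in libraries 19 and 17, respectively, and their groups did not overlap, whereas Mymk had 147 in laser library 17 and 199.8 in library 22 without laser. Stra6l, a membrane receptor for retinol-binding protein, was another of the 5 largest increases among genes detected in all 13 libraries, with 31.1 to 152 (median 91.4) against 0.92, 2.31, 0.958 and 0.531 (log2 fold change 5.30, standard error 0.44, adjusted p = 5.00e-06).

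The calls in the lists that follow stand beside 8.13% rising and 3.51% falling over all genes tested, and nothing is read from a share near these. In the list of metallothioneins and NRF2 targets 4 of 18 genes rose (median 0.27), led by heme oxygenase 1 (Hmox1) with 1211 to 4232 (median 1831) normalized counts against 314, 215, 422 and 303 (log2 fold change 2.69, standard error 0.29, adjusted p = 3.70e-05), followed by Prdx1 (0.72), Gpx1 (0.69) and Gsr (0.54). In the iron list 4 of 13 genes rose, namely Hmox1, the phagosomal metal transporter Slc11a1 (1.91), the ferrireductase Steap3 (0.84) and the ferritin light chain Ftl1 (0.97). Without library 21 or 27, 1 of the first and 2 of the second list rose, and 2 of the second also without library 1, 3, 11 or 13. None of the 5 erythroid genes tested passed the test (median 1.18), and their sum was 1500.3 to 13095 (median 4324) with laser and 638, 962, 8125 and 2220.0 without. Of 16 heat shock genes the factor Hsf1 (-0.61) and the chaperone Hsph1 (-0.66) fell, the latter not without any 1 of libraries 1, 2, 3, 11, 12, 19, 21, 22 and 27, and without library 26 5 fell. Of 20 genes of ER stress and autophagy 3 fell, namely the ER-phagy receptor Retreg1 (-1.58), the autophagy kinase Ulk1 (-0.61) and Map1lc3a (-0.67). Of 16 circadian clock genes the activator Bmal1 (-1.33), Nfil3 (-1.07) and Cry1 (-0.83) fell, and the clock output gene Dbp had 0.29 (adjusted p = 0.539). The hour of dissection is not in the labels, and its part in these values was not tested. In the hypoxia and glycolysis list Pfkfb3 (0.89) rose and 3 of 23 genes fell, namely Bnip3 (-1.05), Egln3 (-1.82) and Hk2 (-1.08). Without library 27 Pfkfb3 did not pass. Without library 22 or 27, 1 of the 23 fell. In the cholesterol list Soat1, which esterifies cholesterol, and the efflux pump Abca1 rose by 1.24 and 1.07, and Fdft1 of cholesterol synthesis fell (-0.66), the last not without library 22 or 27. Of 15 genes of calcineurin signalling Rcan2 (-1.59) and Ppp3cb (-0.49) fell, the latter not without library 3, 21, 22 or 27, and of 17 sialyl- and glycosyltransferases St8sia4 rose (1.24) and St3gal3 fell (-0.93). Further calls of these lists were lost with 1 library left out. Leaving out any of libraries 1, 2, 3, 11, 12, 16, 17, 21, 22 and 27 ended that of Cry1, any of 1, 3, 11, 12, 13, 16, 21, 26 and 27 that of Steap3, any of 1, 2, 3, 11, 12, 13, 21, 22 and 27 that of Ftl1, and any of 1, 3, 11, 12, 21 and 27 that of Gpx1. Those of Prdx1 and Gsr were lost without library 21 or 27, that of Hk2 without 3, 21, 22 or 27, and those of Egln3 and Map1lc3a without 22 or 27.

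The laser response of the Ceacam1-/- choroid, in 7 laser libraries and 4 without, was set beside these values. In a separate fit of those 11 libraries 38 of 20299 genes (0.187%) passed the test, and 36 of the 38 (94.7%) were among the 2243 genes that changed in wild type and were tested in both (1.60% of these), all in the same direction. Library 25, among the 4 without laser, had the highest summed values of all 24 libraries, 35094410, of which Lars2 took 8.09%. The separate fit was not repeated without library 25, and its number of calls was not compared with that of wild type by a test. Serpina3n had a mean of 6782 ± 3456 (SD, n = 7) with laser and 618 ± 448 (SD, n = 4) without in Ceacam1-/- mice, against 10241 ± 2722 (SD, n = 9) and 393 ± 178 (SD, n = 4) in wild type. Timp1 had 3787 ± 1780.1 and 192 ± 66.9 in Ceacam1-/- mice, against 4682 ± 2247 and 173 ± 76.2. In a model of all 24 libraries the laser effect of 0 of 19950 genes (0%) differed between the genotypes at an adjusted p under 0.05 by limma. The lowest adjusted p of this interaction was 0.640, and 1241 genes had an unadjusted p under 0.05. With these numbers of libraries the absence of a call does not show that the responses were alike.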

How the data were processed

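RNA was sequenced from 24 mouse choroid libraries, of which the 13 from wild type mice are described. Per the labels and the study's methods, the authors quantified reads with Salmon 1.10.3 after FastQC 0.11.5, imported them with tximport and normalized them with DESeq2 1.44.0 for library size and average transcript length. The deposited signal values are these normalized counts for 56065 genes. They are not reads, since 35.9% to 77.3% of the low values lay within 5% of a whole multiple of 1 read, so no count model was used and counting error cannot be given. The raw depth of the libraries is unknown.

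Genes with a mean of at least 10 were tested on log2(value + 1) with limma 3.58.1 with a variance trend (R 4.3.3), without covariates, since sex is not in the labels. The tests were checked on simulated data. The interaction was fitted on all 24 libraries. The other values were computed with Python 3.11.15, pandas 2.3.3, numpy 2.4.6 and scipy 1.17.1. Of the gene identifiers 99.1% matched GENCODE vM39.

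The genes, lists and settings were chosen with earlier results of these data known. Some lists share members, such as Spp1, Ctss, Itgb2, Egr2 and Hmox1, so that their counts are not independent of each other. Named genes were drawn from the 4 marker genes, the 10 protein-coding genes of lowest p in each direction, the 3 called genes of lowest p and the most abundant gene per kilobase of exon of each list, the 5 largest called changes in each direction among genes detected in all 13 libraries, and Ceacam1. A few genes that this choice would name are not reported here. Mymk, Myog, Runx1, Vegfb, Vegfd, Dll4, Nrp2, Timp4, Adamts18, Ppara, Hk2, Tap2, Gpx1, Tgfbr2, Spi1 and Lars2 were chosen after their values were seen. Alternatives covered the pseudocount, the filter, the scaling, the variance model, covariates and the libraries included.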

Additional observations from a re-analysis of the deposited data

Results flagged for a closer look

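In each group of 9 or 4 libraries, the gap between the highest or lowest log2(normalized count + 1) and its nearest neighbour was compared with the range of the group (Dixon's criterion). Of the 461 groups tested, for the named genes and the means of the gene lists, 18 held a library that stood apart from the others. Chance gives about 1 in 20, so that this number is close to what chance gives.

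Library 26 stood apart in 6 of the 18 cases, all without laser. It was higher than the other 3 libraries without laser for the macrophage receptor Trem2 (8.56), for Thbs1 (13.83), for the Fc receptor Fcgr4 (6.08) and for the mean of the melanin synthesis genes (12.14), and lower for the clock gene Nfil3 (9.17) and the muscle myosin chain Myl2 (8.29). Library 17 was lower than all other laser libraries in 4 cases, with 11.87 for the lysosomal protease Lgmn, 10.52 for the glutathione reductase Gsr, 7.45 for Nfil3 and 5.51 for the B cell gene Cd79b. It is also the library in which Lars2 took most, 8.79% of the summed values.

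The other cases were single genes or lists. The corneal keratin Krt12 was listed at 0.0 in library 1 with laser, below the others, and was highest at 17.42 in library 22 without, and Ceacam1 was highest at 13.03 in library 19, a laser library rich in surface epithelium genes. Among the laser libraries, library 1 was highest with 10.13 for the oxidase subunit Ncf1, library 2 lowest with 9.46 for the mean of the complement genes and library 12 lowest with 10.03 for the mean of the genes of glial reactivity. Library 21 was lowest of those without laser with 11.25 for Vegfb and highest with 10.64 for the mean of the Y-linked genes.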

How the results depend on the processing

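The number of genes that changed with laser, 2274 with 1588 rising and 686 falling, stayed within 1.5 times under either pseudocount, both filters, both other scalings, no trend, robust variances, each single covariate and the omission of libraries 1, 2 and 17. It was 6832 (3413 and 3419) with array weights, 1053 (844 and 209) in a fit of all 24 libraries, 748 (579 and 169) among the libraries with low Y-linked genes, 825 (784 and 41) without libraries 12, 19, 22 and 27, and 932 (781 and 151) with the photoreceptor and muscle scores as covariates. The last 3 of these fits and the omission of libraries 1, 2 and 17 were chosen after seeing the data. Some of these fits hold fewer libraries, and the cause of these shifts was not tested. Leaving out each library in turn gave 1251 to 2738 genes, 1031 to 1794 rising and 196 to 953 falling, and the numbers moved by over 1.5 times without library 21 (1393 in all), without library 27 (1251 in all) and, for falling genes, without library 22. Every gene with a call that was tested again kept its sign under each of these settings. The settings reuse libraries on which the calls were made, and nothing is read from the kept signs. The interaction had 0 genes under every setting run for it, each of the 24 libraries left out included.

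Of the 172 genes followed by name, 164 had a call. Of these, 114 passed the test in every omission of 1 library and 77 under all alternatives, among them Serpina3n, Saa3, Lcn2 and Tnfrsf1b. The omission of library 27 ended 42 calls (adjusted p 0.0524 to 0.187), that of library 21 35 (0.0516 to 0.183), that of library 22 30 (0.0502 to 0.146) and that of library 3 21 (0.0501 to 0.0816). Those of Acta2, Col1a1, Cd79b, Krt18, Ifitm2, Ifitm3, Bst2, Hsph1, Ftl1, Cry1, Ppp3cb, Dok7, Myl2, Lmx1a, Dll4, Nrp2, Ppara and Hk2 were lost by leaving out any of the libraries 21, 22 and 27. Signs turned for 5 genes without a call. The log2 fold change of Timp3 was -0.041 with quantile normalization, -0.35 with the muscle score, -0.25 without libraries 12, 19, 22 and 27 and -0.47 with both scores, and -0.15 to 0.23 with 1 library left out. That of Ttr was -0.072 with the photoreceptor score, -0.15 without libraries 12, 19, 22 and 27, -0.11 with both scores and -0.072 to 0.52 with 1 library left out, and that of F3 was -0.02 to 0.37 in the latter case. Gnat1 had 0.007 with the photoreceptor score, and Krt12 had 0.14 with array weights, 0.59 without libraries 12, 19, 22 and 27 and -3.87 to 1.27 with 1 library left out. The other settings that took Tgfb3, Gnat1 or Ceacam1 past the threshold included array weights, with log2 fold changes of 0.95, -2.07 and -1.63. No paired analysis was possible because the library numbers are not shared between groups.

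These values are estimates scaled by the authors, so the counting error of low genes such as F7 or Osm cannot be separated from the spread between libraries, and with 4 libraries without laser each carries much weight.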

Other observations

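Long non-coding RNAs were not described above, and the 3 of lowest p in each direction are given here, a choice made after their values were seen. They are named as the annotation gives them, and no role is stated. Slfnlnc (chromosome 11 from 83114357 to 83117928 on GRCm39) had 206 to 405 (median 304) normalized counts with laser and 41, 54.9, 96.8 and 72.7 without (log2 fold change 2.22, standard error 0.25, adjusted p = 5.63e-05). AI506816 had 1172 to 2704 (median 1853) normalized counts with laser and 326, 671, 562 and 458 without (log2 fold change 1.88, standard error 0.22, adjusted p = 8.62e-05). The third, 4930430E12Rik, was low, with 35.7 to 70.2 (median 54.2) normalized counts with laser and 0, 5.52, 0 and 5.7 without (log2 fold change 4.31, standard error 0.53, adjusted p = 0.000121). In all 3 the lowest laser library was above every library without laser.

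Among those that fell, Gm16062 (chromosome 11 from 59700734 to 59709317) had 84.1 to 161 (median 101) normalized counts with laser and 282, 419, 249 and 261 without (log2 fold change -1.40, standard error 0.23, adjusted p = 0.00116). Gm31305 had 14.9 to 34.9 (median 24.2) normalized counts with laser and 79.8, 103, 81.6 and 92.4 without (log2 fold change -1.84, standard error 0.31, adjusted p = 0.00166). Gm10605 had 46.1 to 117 (median 86.9) normalized counts with laser and 231, 184, 229.8 and 215 without (log2 fold change -1.41, standard error 0.26, adjusted p = 0.00281). The groups did not overlap for any of these 3. Genes that overlap these on either strand were not examined, and how the authors' quantification used strand is not given in the sources used here.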
